A study of Mus musculus with 2 samples.

Results

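The T cell co-receptor genes and the transcription factors that set the CD4 and CD8 lineages were examined in mouse spleen by RNA sequencing. The genes were Cd4, Cd8a, Cd8b1, Zbtb7b, Runx3, Runx1 and Gata3. They were taken by symbol from the authors' deposited table, where each matched 1 row, giving 7 of 22216 gene rows. All 7 reached an RPKM of 1 (reads scaled to gene length and to library size) in either library, as did 11141 genes in all. The genes were selected on the RPKM values of the same 2 libraries, known from an earlier look at them, so their values are given as a description, with no test.

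The libraries came from spleens of the genotypes NOD.g7 and NOD.L7. Each was a single library of total RNA from the spleens of 3 mice combined. NOD stands for non-obese diabetic, an inbred mouse that becomes diabetic when its own T cells attack the insulin-producing cells. The labels used here give no age, sex or treatment and do not say what g7 and L7 stand for. Column heads in the table are spelled NOD.LC7 and NOD. The first was read as NOD.L7 and the second, by elimination, as NOD.g7. With 1 library per genotype the spread between mice cannot be measured, and every difference below is one between these 2 libraries. The depth worked out from the RPKM steps was 9.13 Gb of mapped sequence for NOD.g7 and 12.1 Gb for NOD.L7. Intervals below are approximate 95% intervals of counting error, from fragments of an assumed 200 bases, and leave out variation between mice.

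CD4 and CD8 are surface proteins that bind MHC molecules beside the T cell receptor and bring the kinase Lck to it. CD4 binds MHC class II and marks helper and regulatory T cells. CD8 binds MHC class I and marks cytotoxic T cells, mostly as a pair of an alpha chain (Cd8a) and a beta chain (Cd8b1). In the thymus ThPOK, encoded by Zbtb7b, directs cells to the CD4 lineage and restrains the CD8 programme. Runx3 directs cells to the CD8 lineage, silences Cd4 and represses Zbtb7b, and Runx1 takes part in Cd4 silencing at an earlier stage. Gata3 is needed for CD4 lineage cells and acts upstream of Zbtb7b.

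Promoter windows from RefSeq (GRCm38.p6), from 250 bases before to 50 bases after a start site, are shown because some of these factors are RUNX proteins that act on other genes of the set. Windows were matched for 5 of the 7 genes, 8 windows in all. Cd4 and Cd8b1 had no entry. The letters searched were TGTGGT and TGCGGT, the core of RUNX sites, on both strands, so that ACCACA and ACCGCA also count. The 4 windows with a match are printed 5′ to 3′ on the gene's strand, with matches in capitals.
Cd8a, chr6:71373177-71373476, plus strand: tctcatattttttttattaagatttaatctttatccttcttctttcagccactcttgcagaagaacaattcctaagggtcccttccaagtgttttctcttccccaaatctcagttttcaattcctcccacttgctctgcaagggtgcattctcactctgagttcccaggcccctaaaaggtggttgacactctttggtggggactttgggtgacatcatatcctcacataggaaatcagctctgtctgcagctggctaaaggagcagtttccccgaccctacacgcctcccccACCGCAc
Zbtb7b, downstream start, chr3:89387622-89387921, minus strand: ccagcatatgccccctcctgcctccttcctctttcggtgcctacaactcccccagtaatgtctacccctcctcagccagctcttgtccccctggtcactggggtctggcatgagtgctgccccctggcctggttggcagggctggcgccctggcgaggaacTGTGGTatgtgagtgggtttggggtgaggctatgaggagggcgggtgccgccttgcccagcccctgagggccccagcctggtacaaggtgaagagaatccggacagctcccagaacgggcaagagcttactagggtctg
Runx3, upstream start, chr4:135120395-135120694, plus strand: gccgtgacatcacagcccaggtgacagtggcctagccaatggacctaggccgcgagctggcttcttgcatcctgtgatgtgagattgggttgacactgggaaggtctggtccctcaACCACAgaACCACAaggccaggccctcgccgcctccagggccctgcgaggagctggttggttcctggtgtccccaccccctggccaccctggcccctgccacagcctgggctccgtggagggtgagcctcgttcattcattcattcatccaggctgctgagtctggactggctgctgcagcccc
Runx1, upstream start, chr16:92826025-92826324, minus strand: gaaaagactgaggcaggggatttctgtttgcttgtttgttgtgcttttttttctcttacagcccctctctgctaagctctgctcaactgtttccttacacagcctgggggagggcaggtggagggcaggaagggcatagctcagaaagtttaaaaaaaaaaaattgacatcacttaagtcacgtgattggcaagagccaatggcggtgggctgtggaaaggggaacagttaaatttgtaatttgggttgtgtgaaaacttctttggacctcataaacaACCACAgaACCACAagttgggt

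The upstream windows of Runx3 and Runx1 each held 2 matches, the Cd8a window held 1 and the downstream window of Zbtb7b held 1. Of 32817 promoter windows of the same length, 22.4% held a match and 2.87% held at least 2. The paired matches of Runx3 and Runx1 sat in an identical stretch of 18 bases.
Shared stretch: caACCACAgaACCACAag
It starts 136 bases before the Runx3 start site and 26 bases after that of Runx1. Exactly 4 of the 32817 windows held it, those of Runx1, Runx2, Runx3 and Gm16225. The stretch was noticed after the sequences were seen. For GATA factors the letters AGATAA were searched on both strands, together with the versions that begin with T, end in G or do both. Any of these was found in 29.8% of windows. Among the 8 windows that of Gata3 held 1 match and the others 0. A match is a description of the letters and not a measured binding site.

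The co-receptor genes differed in opposite directions between the libraries. Cd4, the helper co-receptor, was higher in NOD.L7, while both chains of CD8 were lower. Zbtb7b was higher by a smaller amount, and Runx3, Runx1 and Gata3 differed little. Log2 ratios below are log2 of NOD.L7 over NOD.g7 after adding 1 to each RPKM. Past a log2 ratio of 0.25 in size, 2 of the 7 genes were lower in NOD.L7 (Cd8a and Cd8b1), where 4.74% of all 11141 genes were. Higher by as much were 2 of the 7 (Cd4 and Zbtb7b), where 8.82% of all genes were. A log2 ratio of 1 in size was reached by 0 of the 7 and by 0.709% of all genes. These shares are printed for scale, since the genes were chosen with this contrast known.

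Cd4 (mm9 chromosome 6, 124814711 to 124838227) was at an RPKM of 106 in NOD.g7 (interval 104 to 108) and 136 in NOD.L7 (135 to 138). It was 1.29-fold higher in NOD.L7 (interval 1.26 to 1.32), and the intervals of the levels did not overlap. Its log2 ratio was 0.36. Of the 3740 genes at an RPKM of 20 or more in either library, 2.59% had a log2 ratio as high.

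Cd8a (chromosome 6, 71323421 to 71329165) encodes the alpha chain. It was at 53.7 in NOD.g7 (interval 52.5 to 54.9) and 31.7 in NOD.L7 (30.9 to 32.5), 1.69-fold lower (interval 1.64 to 1.75). The log2 ratio of -0.74 made it the member furthest from 0, and 0.321% of those 3740 genes were as low. Cd8b1 (chromosome 6, 71272806 to 71287445) encodes the beta chain. It was at 81.8 (79.7 to 84.0) and 54.9 (53.4 to 56.5), 1.49-fold lower (interval 1.43 to 1.55) with a log2 ratio of -0.57. Both chains were thus lower in the same library, the alpha chain gene by slightly more.

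**Figure D1:**
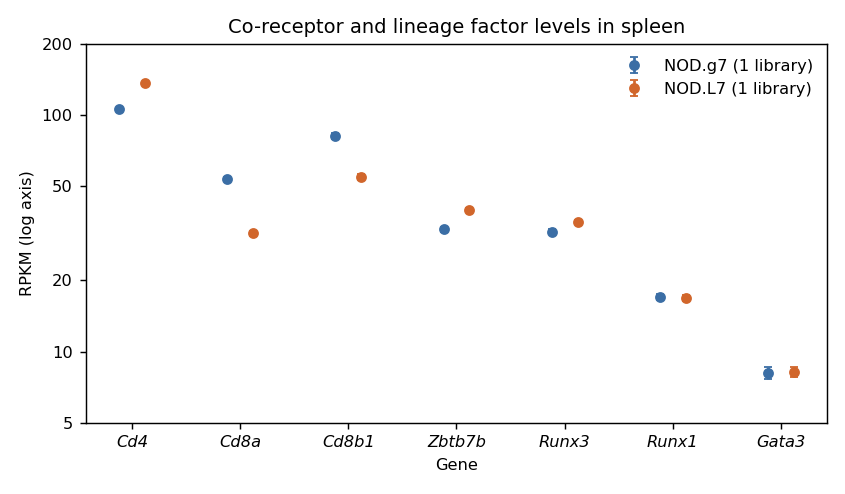
RPKM of each gene (log axis) in the NOD.g7 library (blue) and the NOD.L7 library (orange), 1 point per library, with bars for the approximate 95% counting interval where larger than the point. Cd4 is at 106 and 136, Cd8a at 53.7 and 31.7 and Cd8b1 at 81.8 and 54.9, while Runx1 and Gata3 nearly coincide.

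Zbtb7b (chromosome 3, 89181568 to 89197125), the gene for ThPOK, was at 32.9 (interval 32.1 to 33.7) and 39.7 (38.9 to 40.5). It was 1.21-fold higher in NOD.L7 (interval 1.17 to 1.24), with a log2 ratio of 0.26, close to the threshold. Its log2 ratio was 0.25 after centring the median of all genes on 0, 0.24 with a TMM factor and 0.22 after centring on T cell genes, all under 0.25 before rounding. In the table it overlaps Gm15417, which was at 0.384 and 0.269. No other gene of the set overlaps a row of the table.

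Runx3 (chromosome 4, 134676560 to 134733905), the CD8 lineage factor, was at 32.1 (31.3 to 33.0) and 35.3 (34.5 to 36.1). It was 1.10-fold higher in NOD.L7 (interval 1.06 to 1.14), and so lay on the other side from the CD8 chains. Its log2 ratio of 0.13 was matched or passed by 19.6% of all kept genes. Among the 3740 genes used above for Cd4 and Cd8a, 11.98% had a log2 ratio as high. Runx1 (chromosome 16, 92601711 to 92826311), a factor used across blood lineages, was at 17.0 (16.5 to 17.5) and 16.9 (16.4 to 17.3), a fold of 0.994 (interval 0.956 to 1.03). Gata3 (chromosome 2, 9778705 to 9800227) was at 8.10 (7.64 to 8.57) and 8.22 (7.82 to 8.63), a fold of 1.02 (interval 0.941 to 1.10). For these last 2 genes the interval of the fold includes 1.

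**Figure D2:**
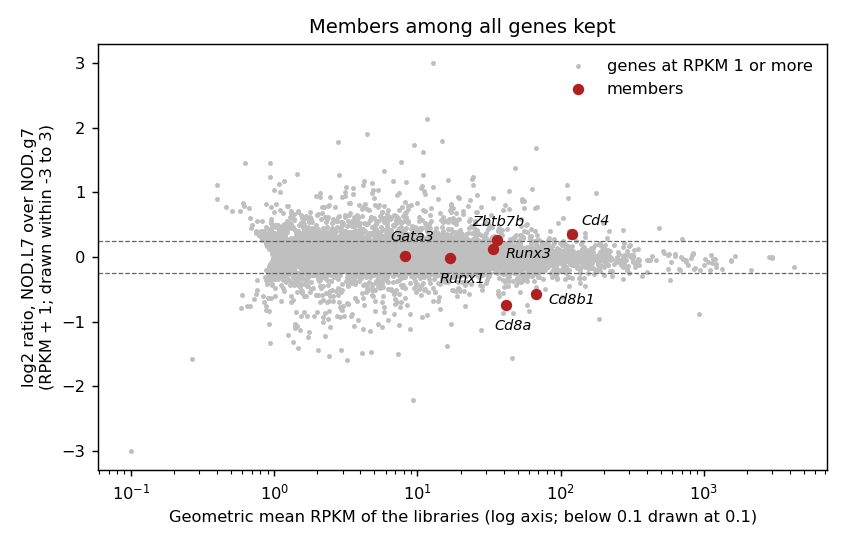
The log2 ratio of NOD.L7 over NOD.g7 (RPKM + 1) against the geometric mean RPKM (log axis) for 11141 genes (grey) and the 7 genes described here (red), with dashed lines at -0.25 and 0.25. Cd8a (-0.74) and Cd8b1 (-0.57) lie below the lines and Cd4 (0.36) above, while Zbtb7b (0.26) is at the upper line.

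The order of RPKM levels, which are per length of the authors' gene models, differed between the libraries through Cd8a. In NOD.g7 Cd4 was highest, followed by Cd8b1, Cd8a, Zbtb7b, Runx3, Runx1 and Gata3. In NOD.L7 Cd8a ranked 5 instead of 3, below Zbtb7b (39.7) and Runx3 (35.3). Zbtb7b and Runx3 had overlapping intervals of level in NOD.g7 but not in NOD.L7. The other neighbours in either order had intervals that did not overlap.

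Ratios within a library do not depend on how the library was scaled. The Cd4 to Cd8a ratio of RPKM values was 1.97 in NOD.g7 against 4.31 in NOD.L7, higher by 2.18-fold (interval 2.10 to 2.27). Against the beta chain, the ratio of Cd4 to Cd8b1 was 1.29 and 2.48, higher by 1.92-fold (interval 1.84 to 2.01). The balance of helper to cytotoxic co-receptor RNA was thus higher in NOD.L7 by either CD8 chain. The Cd8a to Cd8b1 ratio was 0.656 and 0.577, a fold of 0.879 (interval 0.836 to 0.926). That pair stayed closer together than either did with Cd4.

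For the opposing lineage factors the difference was small. The Zbtb7b to Runx3 ratio was 1.02 in NOD.g7 against 1.13 in NOD.L7, a fold of 1.10 (interval 1.05 to 1.15). Runx3 to Runx1 was 1.89 and 2.09. In whole spleen RNA the Zbtb7b to Runx3 ratio thus differed less between the libraries than the ratio of Cd4 to either CD8 chain. The part of cells other than T cells in the Zbtb7b and Runx3 values was not tested.

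**Figure D3:**
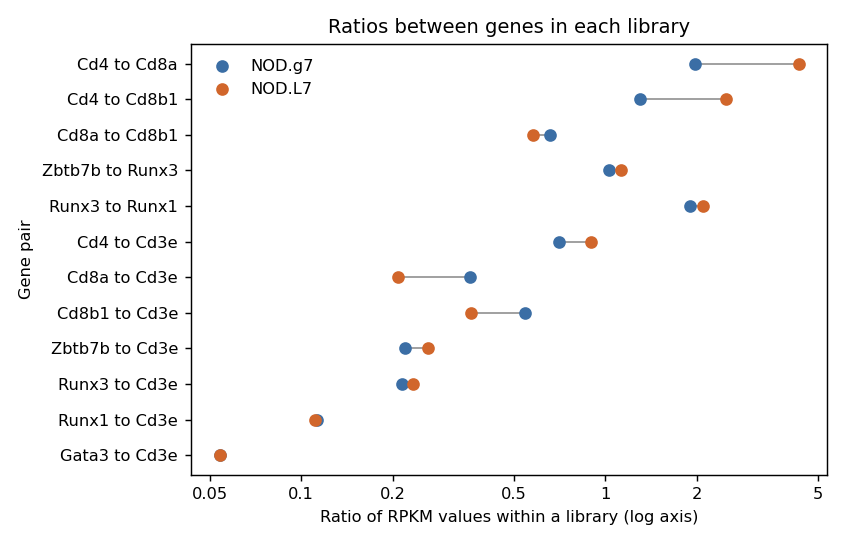
Ratios of RPKM values between pairs of genes (log axis) within NOD.g7 (blue) and within NOD.L7 (orange), joined by a line for each pair. The Cd4 to Cd8a ratio (1.97 and 4.31) and the Cd4 to Cd8b1 ratio (1.29 and 2.48) have the longest lines, and Gata3 to Cd3e has overlapping points.

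Cd3e, the epsilon chain of the T cell receptor complex in CD4 and CD8 cells alike, was at 150.0 and 151.8. Per Cd3e, Cd4 was 0.706 in NOD.g7 and 0.899 in NOD.L7, Cd8a 0.358 and 0.209, and Cd8b1 0.545 and 0.362. The opposite differences of the co-receptors were thus present relative to this shared T cell gene. In absolute terms Cd4 was higher by 30.6 RPKM, and Cd8b1 lower, with a difference of -26.9. The summed RPKM of Cd4 and Cd8b1 was 187.6 and 191.4, or 1.25 and 1.26 per Cd3e, and Cd4 made up 56.4% and 71.3% of it. With Cd8a in place of Cd8b1 the sum was 159.5 and 168.1, with Cd4 at 66.4% and 81.2%. The sums were chosen after the values were seen. In whole spleen, fewer cells of a type and less RNA per cell cannot be told apart.

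Most of the T cell genes around the co-receptors had log2 ratios near 0. Of 25 pan-T cell genes, 4 were higher past 0.25 and 0 lower, beside 8.82% and 4.74% of all genes. Their median log2 ratio was 0.04 against 0.02 for all genes. The 4 were Trat1 (26.6 and 36.3) and Lat (130.6 and 169.3), with log2 ratios of 0.43 and 0.37 beside 0.36 for Cd4, and Sit1 (27.3 and 33.7) and Lcp2 (41.5 and 50.4). All 4 encode adaptor proteins of T cell receptor signalling. Tcf7, a transcription factor of naive and memory T cells, was at 253.5 and 260.6.

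Of 10 partners and relatives of the co-receptors, 2 were higher past 0.25, Lat and Lag3, beside 8.82% of all genes. Lower past 0.25 were 0 of the 10, beside 4.74% of all genes, and the median log2 ratio was 0.01. The kinase gene Lck, whose product binds the tails of CD4 and CD8 alpha, was at 203.1 and 202.2. Csk, the kinase that restrains Lck, was at 244.7 and 226.2, and Zap70, which Lck activates, at 39.6 and 44.4. Lag3, a CD4-related receptor for MHC class II, was at 3.96 and 5.40.

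Of 16 listed partners and relatives of RUNX and ThPOK 13 were kept, with a median log2 ratio of 0.03. Past 0.25, 0 were higher and 0 lower, beside 8.82% and 4.74% of all genes. With a pseudocount of 0.1 or 0.5 the count higher was 1, Zbtb16, whose plain fold was 1.34. Cbfb, the shared partner subunit of RUNX proteins, was at 51.7 and 53.0. Runx2 was at 6.01 and 5.69, and Zbtb7a, a close relative of ThPOK, at 26.9 and 25.8. Patz1, which encodes the CD8 gene regulator MAZR, was at 15.1 and 15.3. The members furthest from 0 were Zbtb16 (0.817 and 1.09), Tle4 (19.1 and 17.0), Zbtb20 (3.62 and 3.14) and Cbfa2t2 (4.76 and 5.39).

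In the GATA family and its partners 7 of 11 genes were kept, with a median of -0.03. Past 0.25, 1 was higher and 0 lower, beside 8.82% and 4.74% of all genes. With a pseudocount of 0.1 or 0.5 the count higher was 2. The gene past 0.25 with a pseudocount of 1 was Gata2, a factor of progenitors and mast cells, at 1.69 and 2.53. Gata1, the erythroid factor, was at 3.05 and 2.72, its cofactor gene Zfpm1 at 14.3 and 13.1, and Notch1 at 17.0 and 20.4. Gata4, Gata5 and Zfpm2 were listed at 0 in both libraries.

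All 29 other lineage choice factors were kept, with a median of 0.01. Past 0.25, 4 were higher and 2 lower, beside 8.82% and 4.74% of all genes. The 4 named by size were Tox2 (1.51 and 3.04), Socs1 (9.13 and 12.9), Ikzf3 (149.9 and 119.7) and Id3 (47.4 and 38.7). Socs1, a cytokine signalling inhibitor, was 1.41-fold higher in NOD.L7 (interval 1.31 to 1.51). Ikzf3, the Aiolos gene, is also strongly expressed by B cells, and 6 of 8 B cell markers were lower past 0.25, with a summed RPKM of 2615 and 2098. Their part in the Ikzf3 difference was not tested.

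Genes of helper and cytotoxic cells lay on the same sides as their co-receptors. The 22 listed names of helper T cell genes led to 21 rows, since Izumo1r and Folr4 name the same gene, and 17 were kept. Past 0.25, 9 were higher in NOD.L7 and 0 lower, to be read beside 8.82% and 4.74% of all genes. Their median log2 ratio was 0.31. The furthest were Maf (8.31 and 14.4), Ccr4 (2.09 and 3.74), Pdcd1 (5.09 and 8.30) and Foxp3 (13.4 and 19.9). Maf is also expressed by macrophages, and all 8 kept macrophage markers were higher past 0.25 (summed RPKM 278.7 and 464.3); their part was not tested.

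Of 20 genes of cytotoxic and CD8 T cells, 10 were lower in NOD.L7 past 0.25 and 0 higher, beside 4.74% and 8.82% of all genes. Their median log2 ratio was -0.33. With a pseudocount of 0.1 the count higher was 1. The furthest were Eomes (12.6 and 6.35), Klrd1 (28.2 and 16.3), Nkg7 (75.1 and 44.5) and Klrc1 (7.49 and 4.26). Tbx21, the T-bet gene, was at 9.81 and 6.78. Natural killer cells share most of these genes but lack T cell receptors, and 6 of 6 kept markers of those cells were lower past 0.25. Their summed RPKM was 130.3 and 51.7, with Gzma at 79.9 and 26.3, Ncr1 at 24.9 and 11.6, Klrb1c at 5.91 and 2.53 and Klre1 at 10.2 and 5.55, and Styk1 listed at 0 in both libraries. Natural killer cells also express Runx3 and low levels of Gata3. The part of these cells in the cytotoxic list and in the Runx3 and Gata3 values was not tested.

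**Figure D4:**
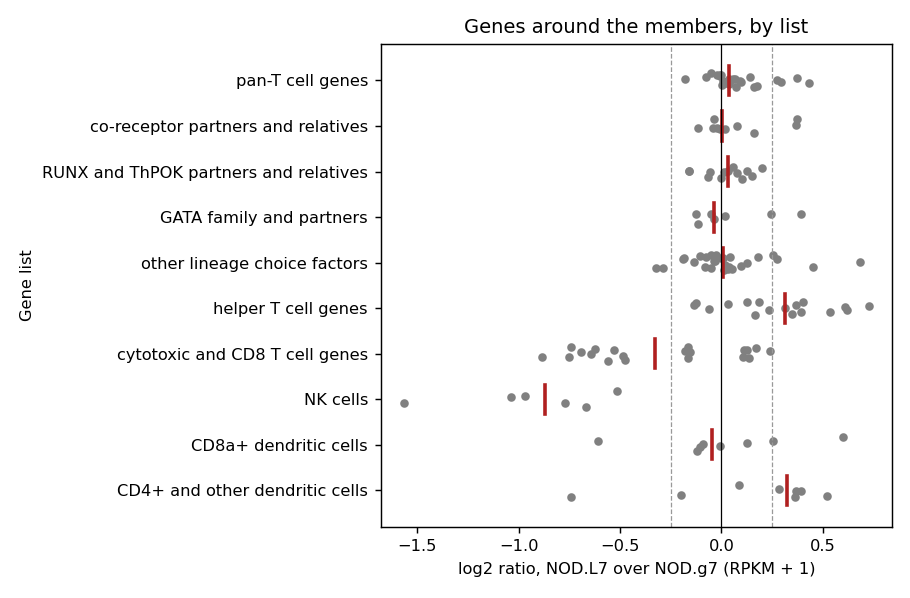
Log2 ratios of NOD.L7 over NOD.g7 (RPKM + 1) for each kept gene (grey points, spread vertically for display) in 10 lists, with the median in red and dashed lines at -0.25 and 0.25. Helper T cell genes have a median of 0.31, cytotoxic and CD8 T cell genes -0.33 and pan-T cell genes 0.04.

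Dendritic cells of the mouse spleen also carry co-receptors, CD8 alpha without the beta chain on one kind and CD4 on another. Of 8 markers of the CD8 alpha kind, 2 were higher and 1 lower past 0.25, beside 8.82% and 4.74% of all genes. The 8 markers had a median log2 ratio of -0.05 and a summed RPKM of 231.4 and 219.2. Xcr1 was at 1.52 and 1.34 and Clec9a at 2.40 and 2.39, while Irf8 and Wdfy4, which B cells also express, were at 128.9 and 118.5 and at 77.3 and 72.6. The part of these cells in the Cd8a difference was not tested. The furthest were Tlr3 (3.48 and 1.93), Batf3 (3.86 and 6.37), Cadm1 (5.97 and 7.31) and Itgae (7.91 and 8.72). Among 8 markers of CD4 bearing and other dendritic cells, 5 were higher and 1 lower, with a median of 0.32 and a summed RPKM of 172.9 and 186.0. Dtx1, within 0.25, made up most of that sum, at 105.0 and 111.5. Siglech, also within 0.25, was at 21.8 and 18.8. The markers past 0.25 included Itgax (20.8 and 30.3), Zbtb46 (1.90 and 2.81), Esam (1.14 and 1.76) and, as the lower gene, Ccr9 (11.3 and 6.34). The part of these cells in the Cd4 difference was not tested.

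Markers of other cell types differed as well, where 4.74% of all genes were lower and 8.82% higher past 0.25. Erythroid markers had a summed RPKM of 103.4 and 42.2, with 6 of 7 lower past 0.25, and neutrophil markers 805.2 and 1067, with 4 of 7 higher. Platelet markers, whose lineage uses Runx1, stood at 15.0 and 20.2, with 1 of 5 kept genes higher. Markers of innate lymphoid cells, which use Gata3, stood at 8.62 and 11.4, with 2 of 4 kept genes higher, among them Il1rl1 (0.905 and 1.37) and Kit (5.02 and 7.16). The part of these cells in the Runx1 and Gata3 values was not tested.

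All 3 co-receptor genes lie on chromosome 6, and the CD8 genes are neighbours, 35976 bases apart. Genes flanking that pair had log2 ratios between -0.08 and 0.24. Krcc1, next to Cd8b1, was at 30.8 and 31.8, and Rmnd5a, next to Cd8a, at 28.9 and 27.3. Further out, Eif2ak3 was at 17.9 and 21.4 and Rnf103 at 6.38 and 6.96. Around Cd4 the nearest kept genes had log2 ratios between 0.12 and 0.37. These ranges overlap, with Eif2ak3 at a log2 ratio of 0.24 and Ptms, near Cd4, at 0.21. Lag3 had a log2 ratio of 0.37 beside 0.36 for Cd4, Ptms was at 47.7 and 55.4, Gpr162 at 0.949 and 1.22 and Cdca3 at 3.74 and 4.15. Lag3 was the 1 of these 4 past 0.25, where 8.82% of all genes were higher by as much. The interval of the Cdca3 fold (0.964 to 1.28) includes 1.

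**Figure D5:**
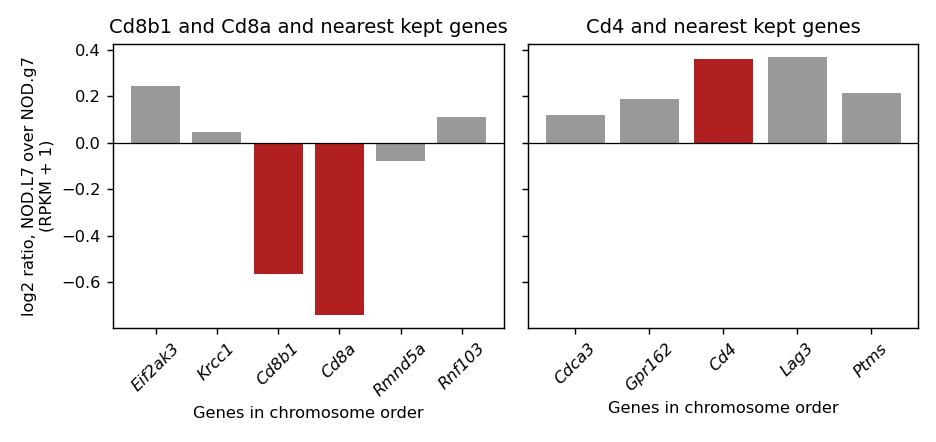
Log2 ratios of NOD.L7 over NOD.g7 (RPKM + 1) for Cd8b1 and Cd8a (left, red) and Cd4 (right, red) with the nearest kept genes on either side (grey), in chromosome order and not to scale. Cd8b1 (-0.57) and Cd8a (-0.74) lie below genes between -0.08 and 0.24, while Cd4 (0.36) lies among genes between 0.12 and 0.37.

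With 2 libraries, the pattern of a gene is its log2 ratio alone, and likeness was the difference of log2 ratios among the 3740 genes at an RPKM of 20 or more. Nearest to Cd8a were Nkg7 (75.1 and 44.5), Klrd1 (28.2 and 16.3) and Cd55 (80.5 and 44.6), which differed from it by 0.00036, 0.011 and 0.096. Nkg7 and Klrd1 are genes of cytotoxic lymphocytes. For Cd8b1 the nearest were Fchsd2 (44.6 and 29.8), Bpgm (28.3 and 18.8) and Ctsw (48.0 and 32.2), all within 0.01. Cd4 was closest to Batf (19.2 and 24.96), Coro2a (23.3 and 30.3) and Lmnb1 (23.5 and 30.5), all within 0.001. Such matches are common where ratios are common. Of the 11141 kept genes, 584 lay within 0.1 of the log2 ratio of Cd4, 94 of that of Cd8b1 and 43 of that of Cd8a, each count including the gene itself.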

How the data were processed

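Total RNA of spleen was sequenced, with 1 library per genotype from the combined spleens of 3 mice, per the labels. The authors deposited 1 table of gene coordinates and RPKM values, 1 column per library. Per the submitters' processing notes, CASAVA 1.8.2, SAMtools 0.1.18 and the mm9 build were used. For gene models, strandedness and alignment settings, nothing is given in the sources used here.

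Log2 ratios used a pseudocount of 1, which understates changes of low genes, on genes at an RPKM of 1 or more in either library, and were read at 0.25 and 1. Depth came from low RPKM values of single-exon genes (754 matched in GENCODE M21), which were whole multiples of 1 base within 0.15 for 100% of 99 and 114 values. Fragments were approximated with the longest GENCODE transcript and 200 bases each. Folds have Clopper-Pearson intervals, levels exact Poisson ones, and ratios normal intervals on the log scale. Intervals cover counting error only. No count model or test was used, and the fold interval was tested on simulated data. Python 3.11.15 and scipy 1.17.1 were used.

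The members and lists were chosen with earlier results of these data known. Lists share some genes. Named were the members, up to 4 genes per list with the largest absolute log2 ratio, genes fixed by name, the 2 nearest neighbours on each side of a co-receptor gene, and the 3 most alike in ratio. Not all genes so named are printed for marker lists. Alternatives tried were other pseudocounts (0.1, 0.5 and 0), the filter removed or raised to RPKM 5, median centring, a TMM factor, centring on pan-T cell genes, and fragments of 100 and 300 bases.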

Additional observations from a re-analysis of the deposited data

How the results depend on the processing

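No paired analysis was possible because there is 1 library of each genotype, and no replicate could be left out. Under 6 settings of pseudocount and scaling the 7 genes gave 42 log2 ratios, of which 39 stayed on the same side of 0.25 and 41 kept their sign. The 3 that crossed were those of Zbtb7b under median centring, the TMM factor and centring on pan-T cell genes. The change of sign was Gata3 centred on pan-T cell genes, at -0.02 against 0.02. That centring also put Cd4 at 0.32 against 0.36. With the filter raised to RPKM 5, which leaves fewer genes, 286 genes were lower and 522 higher past 0.25, against 528 and 983. Ratios within a library moved by less than their counting intervals with pseudocounts of 1 and 0.1. Of 192 list counts under alternatives, 179 equalled the reported count or were within 1.5 times it. Counts of 0 that stayed at 0 are among the 179, so the share says less about counts above 0. With fragments of 100 or 300 bases the interval of the Cd8a fold (NOD.L7 over NOD.g7) was 0.576 to 0.605 or 0.566 to 0.616. Depth limits Gata3 most, where the interval of the fold was 0.941 to 1.10.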
